A study of Mus musculus with 8 samples.

Results

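The 4 libraries described here are those whose genotype label reads heterozygous, out of 8 libraries in the series, each made from RNA of mouse tissue labelled spinal cord. The series studies Arf1, a small GTPase of the Golgi, in neurons. All animals were of the C57BL/6 strain and between 2 and 10 months old, and the treatment label gives tamoxifen at 100 mg/kg, injected into the abdomen, as the means of deleting Arf1. It does not say whether the heterozygous animals received it, and the labels name neither the Cre driver, the allele, nor the age or sex of single animals. The 4 remaining libraries, labelled homozygous, are not compared here. One library per animal number is taken to mean 1 animal per library, which the labels do not state outright, so the spread between libraries may include technical spread. The libraries are called heterozygous replicates 1 to 4 in order of deposition, and 4 values in a row always follow that order.

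The spinal cord relays signals between brain and body. Its white matter is rich in oligodendrocytes, which wrap axons in myelin, and its grey matter holds motor neurons that release acetylcholine, dorsal horn neurons that use peptides, and inhibitory neurons that use glycine as well as GABA. Its neurons keep expressing Hox genes, transcription factors whose order along the chromosome follows the order of body segments, while the forebrain hardly expresses them and instead uses factors such as Tbr1. In whole tissue, fewer cells of a type and less RNA per cell cannot be told apart.

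Levels are in TPM, a measure that divides reads by gene length and scales each library to the same total. The libraries held 29857210 to 37803594 expected counts, the RNA integrity number was 9 in all 4, and between 98.3% and 98.5% of reads mapped. Of the sequenced bases, 46.8%, 46.8%, 46.4% and 48.7% were coding. The ratio of coverage at the 5′ end to that at the 3′ end was 0.438, 0.441, 0.413 and 0.505, highest in replicate 4.

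Genes of the forebrain were expressed in all 4 libraries. In each library Tbr1, Neurod6 and Slc17a7 lay above Chat, Slc6a5 and every single Hox gene, which are typical of the cord. Tbr1, a factor of cortical projection neurons, stood at 60.4, 54.5, 45.4 and 44.2 TPM, and Neurod6, a factor of excitatory cortical and hippocampal neurons, at 60.1, 80.6, 63.3 and 64.03 TPM. These 2 forebrain genes had a CV of 15.1% and 13.7% over the libraries (CV is the SD as a percentage of the mean). The vesicular glutamate transporter of cortical neurons, Slc17a7, stood at 653, 666, 507 and 498 TPM, and the transporter typical of cord and thalamic neurons, Slc17a6, at 21.7, 19.7, 33.2 and 41.1 TPM. The 2 ranges did not overlap. A list of 15 genes of cortical excitatory neurons, put together after the levels were seen, summed to 3275, 3575, 2969.6 and 2913 TPM, a CV of 9.597%. A list of 19 genes of forebrain and cerebellum summed to 300.4, 315, 275 and 276 TPM.

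Genes typical of the cord were also present, mostly at low levels, though not all of them are limited to it. The 39 Hox genes in the files summed to 83.2, 94.2, 151 and 129 TPM, and the one with the highest mean, Hoxb8, stood at 12.7, 9.44, 19.8 and 18.8 TPM. The gene for the enzyme that makes acetylcholine, Chat, stood at 2.24, 3.96, 3.83 and 4.16 TPM, and Mnx1, a motor neuron factor, stayed under 1 TPM in every library. The glycine transporter gene Slc6a5 stood at 10.8, 10.7, 20.1 and 24.6 TPM, and the adult glycine receptor subunit gene Glra1 at 2.71, 2.33, 3.62 and 11.3 TPM. Both were highest in replicate 4. Gabra6, a GABA receptor subunit of cerebellar granule cells, never exceeded 0.26 TPM. The markers therefore go against spinal cord as the only tissue in these libraries. They are called here by their genotype, and how much RNA came from each region was not tested.

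**Figure D1:**
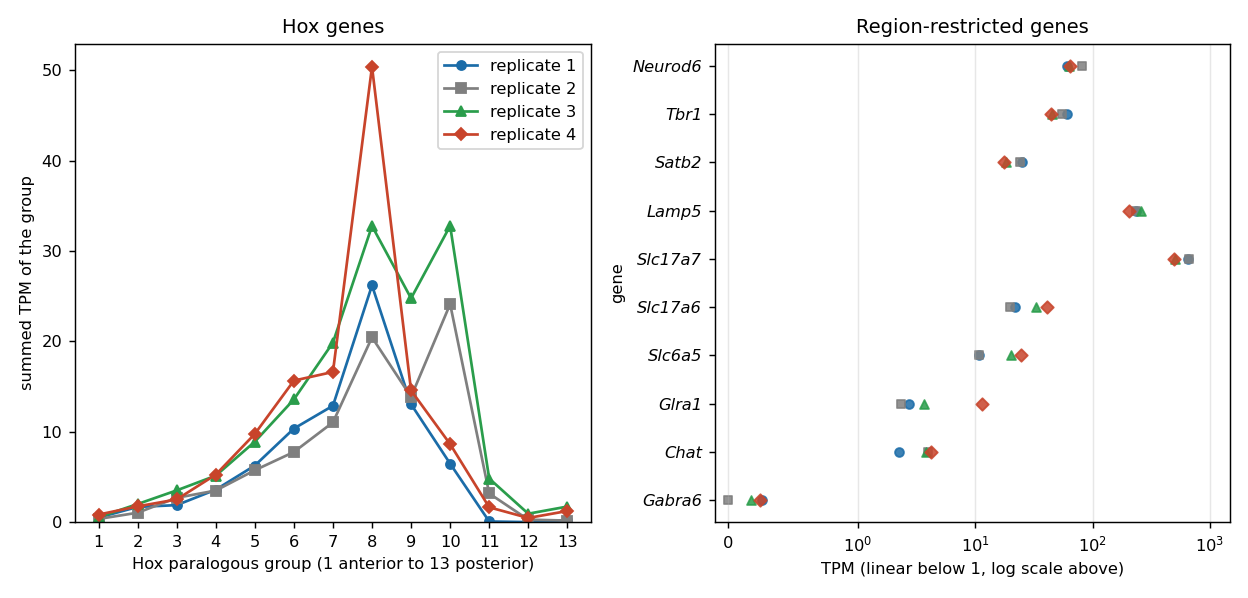
Left, summed TPM of the Hox genes of each paralogous group, from anterior (1) to posterior (13), with 1 line per heterozygous library. Right, TPM of genes typical of forebrain, cord or cerebellum in each library, on an axis that is linear below 1 TPM and logarithmic above. Slc17a7 lies between 498 and 666 TPM in every library, while Chat and Glra1 lie lower and Gabra6 does not exceed 0.26 TPM.

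Transcripts of the mitochondrial chromosome took the largest share of the libraries. Its 37 genes held 18.3% ± 0.881 of TPM (SD, n = 4). The 13 protein-coding genes, subunits of the respiratory chain and ATP synthase, gave 16.6%, the 2 ribosomal RNA genes 1.72%, and the 22 transfer RNA genes were listed at 0. The gene with the highest value was mt-Atp8, an ATP synthase subunit, at 60755, 65887, 59559.9 and 60051 TPM. Its effective length of 37.5 bases inflates its TPM, and it overlaps mt-Atp6, which stood at 4792, 4753, 5246 and 4218 TPM. The main subunit of cytochrome oxidase, mt-Co1, stood at 28598, 32277, 31451 and 27206 TPM. A further 11.6% ± 0.552 of TPM went to 6 predicted genes, Gm28661, Gm10925, Gm28437, Gm29216, Gm28438 and Gm10222, annotated as unprocessed pseudogenes. They sit side by side on chromosome 1 between 24612407 and 24616197, minus strand (GRCm38). Nuclear copies of mitochondrial DNA can share reads with mitochondrial transcripts, and which of the copies gave these reads was not tested. Together the mitochondrial chromosome and the 6 predicted genes held 29.9% ± 1.33 of TPM but 9.84% ± 0.830 of expected counts, which are not divided by length.

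Among named nuclear genes, those of myelin, iron storage, glycolysis and the synapse led. Mbp, myelin basic protein of the compact sheath, was the highest at 5388, 5945, 5930.5 and 6211 TPM. Fth1, the heavy chain of the iron store ferritin, followed at 4762, 4743, 4968 and 4666 TPM, and the glycolytic enzyme gene Gapdh stood at 3320.1, 3189, 3263 and 3254 TPM. For these 3 genes the CV was 5.89%, 2.702% and 1.65%. Snap25, which drives fusion of synaptic vesicles, stood at 2954, 2761, 2464 and 2356 TPM, and was highest in replicate 1. The chaperone gene Hspa8 was at 2619, 2015, 2013 and 2081 TPM, also highest there. Next came Calm2 (calmodulin), Apoe (the astrocyte lipid carrier), Aldoa (aldolase), Eef1a1 (translation elongation) and Rps29 (a ribosomal protein), with means between 1930.1 and 2182 TPM. The 25 highest named nuclear genes also included Ppia, Tmsb4x, Tuba1a, Rplp1, Cpe, Rps27, Sparcl1, Atp1b1, Gnas, Cst3, Ttr, Hsp90ab1, Calm3 and Rps15. Apart from Ttr, the genes of this group named here had a CV of 14.2% or less, the value of Sparcl1. Ttr, transthyretin, is made in the brain by the choroid plexus and had a CV of 83.9%.

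**Figure D2:**
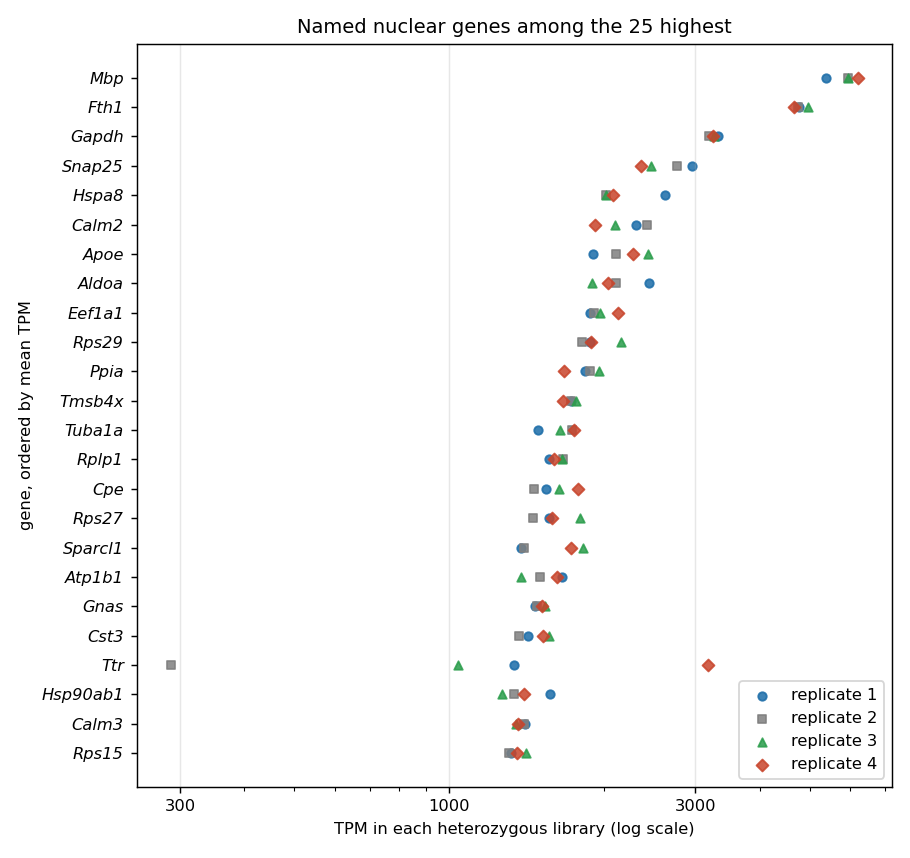
TPM (log scale) of named nuclear genes among the 25 with the highest mean, in order of mean, with 1 symbol per heterozygous library. The symbols of each gene lie close together except for Ttr, which runs from 288 TPM in replicate 2 to 3169 TPM in replicate 4.

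Expression was spread over many genes below that top. At a mean of at least 1 TPM 14813 genes were detected, 13467 of them protein-coding, and 77 genes reached a mean of 1000 TPM. The 10 highest genes held 23.4% ± 1.04 of TPM, the 100 highest 40.8% ± 1.18 and the 1000 highest 67.0% ± 1.09 (SD, n = 4). Among families, the 86 cytosolic ribosomal protein genes held 4.58%, with sums of 44734, 43913, 49954 and 44612 TPM, highest in replicate 3, where 76 of the 82 members that passed the floor peaked. The floor used from here on is a mean of at least 1 TPM and of at least 100 expected counts. Of all genes past it 23.3% were highest in replicate 1, 14.5% in replicate 2, 14.5% in replicate 3 and 47.6% in replicate 4, the background for each count of genes that peaked in a library. Nuclear genes of the respiratory chain and ATP synthase held 2.84%, a list of 16 glycolysis genes 1.34%, tubulins 0.622%, solute carriers 0.874%, Rab GTPases 0.441% and the proteasome 0.44%. Large families of other organs were nearly silent. Of 1344 olfactory receptor genes 1221 were at 0 in all 4 libraries, as were 296 of 327 vomeronasal receptor genes.

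Neurons, oligodendrocytes and astrocytes gave the highest sums among the cell type lists. The list of 20 myelin and mature oligodendrocyte genes summed to 11085, 12081, 12502 and 13708 TPM, or 1.23% of TPM. Mobp, a myelin protein, stood at 1183, 1258, 1239.9 and 1400.0 TPM, lowest in replicate 1 and highest in replicate 4. Oligodendrocyte precursors, marked by the growth factor receptor gene Pdgfra at 12.8, 14.5, 15.6 and 21.6 TPM, gave a list sum of 191, 191, 214 and 236 TPM. The 20 pan-neuronal genes summed to 11884, 12158, 11234 and 11384 TPM, with a CV of 3.69%. Besides Snap25 they were led by Syp, a vesicle membrane protein, at 1102, 1186, 1101 and 1129 TPM and Uchl1, a ubiquitin hydrolase abundant in neurons, at 834, 902, 836 and 855 TPM. Neurofilament genes, which build the axonal skeleton, summed to 930.2, 1087, 1121 and 1045 TPM.

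Astrocyte genes were mostly higher in replicates 3 and 4 than in replicates 1 and 2. Their 20 genes summed to 8208, 8363, 10170.4 and 9998 TPM, and each of the 20 peaked in replicate 3 or 4, 10 in each. Glul, which makes glutamine from glutamate, was at 1269.6, 1117, 1375 and 1369 TPM, and Gja1, the main astrocyte gap junction gene, at 101, 113, 146 and 149 TPM. The aldolase of astrocytes, Aldoc, stood at 859.5, 922, 1144 and 1029.9 TPM, with replicates 3 and 4 above the others. Gfap differed, at 275, 218, 243 and 312 TPM, with replicate 1 above replicate 3. None of the 20 was called variable. Microglial genes were far lower, with a sum of 659.7, 597, 716 and 669 TPM over 16 genes, and 13 of the 16 peaked in replicate 3. The complement gene C1qa stood at 92.5, 78.6, 95.2 and 91.8 TPM, and the purine receptor gene P2ry12 at 27.4, 32.9, 38.8 and 35.2 TPM. Endothelial genes summed to 996, 1090.0, 1169 and 1112 TPM, led by Bsg, which neurons and glia express too, at 534, 525, 549 and 556 TPM. The tight junction gene Cldn5, more specific to vessels, stood at 22.4, 29.97, 24.4 and 19.4 TPM. Pericyte and vascular smooth muscle genes summed to 185, 217, 249 and 209.9 TPM.

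**Figure D3:**
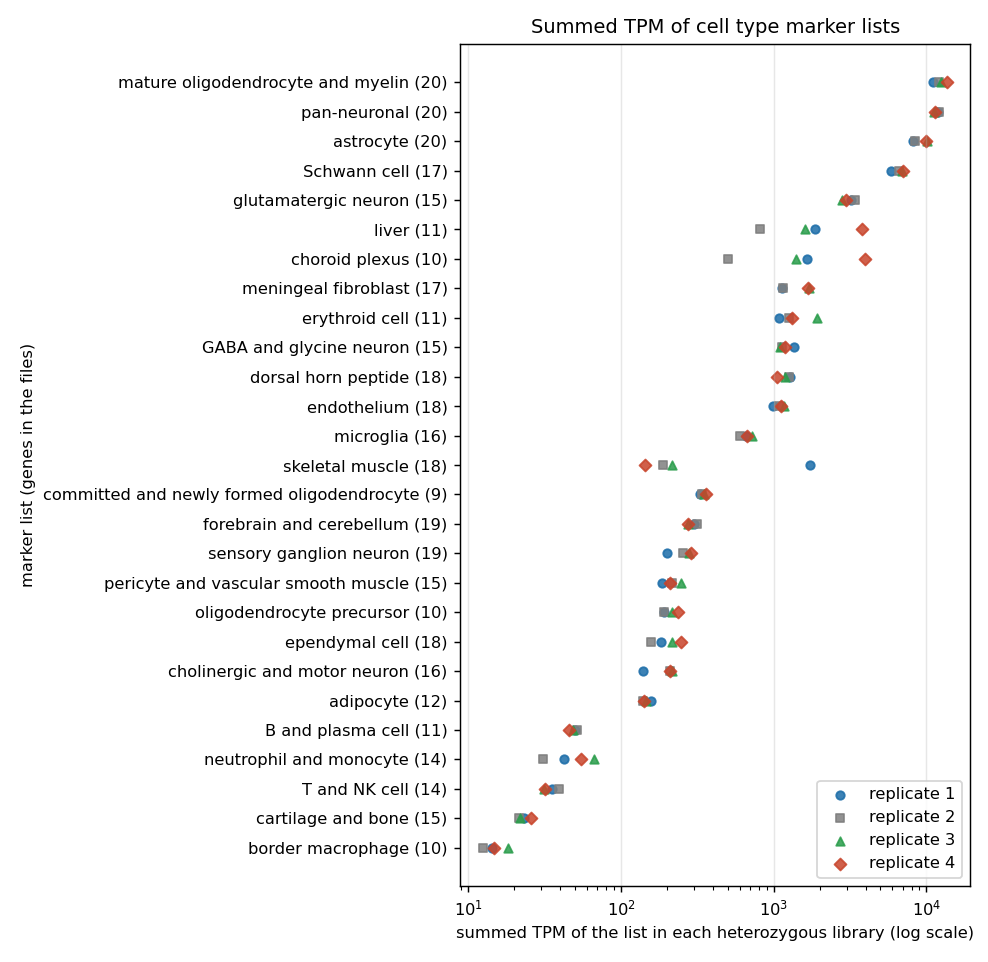
Summed TPM (log scale) of each cell type marker list in each heterozygous library, with the number of genes found in the files in brackets. Most lists form tight clusters of 4 symbols. Skeletal muscle is far higher in replicate 1, at 1739 TPM, and choroid plexus spreads from 502 to 3938 TPM. The Schwann cell list contains Mbp and the liver list contains Ttr, which set those sums. Pvalb makes up most of the skeletal muscle sum in replicates 2 to 4, and Ttr most of each choroid plexus sum.

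The genes of glutamatergic and GABAergic neurons given here stood above the cholinergic ones. Their products do different jobs, so the levels are not a like measure of transmitter use. Camk2a, a kinase of excitatory synapses, stood at 979, 1061, 992 and 1042 TPM and Nrgn, a calmodulin-binding protein of forebrain dendrites, at 819, 949.7, 684 and 628 TPM. The GABA-synthesising enzyme gene Gad1 stood at 243, 183, 174 and 217 TPM, against Slc5a7, the choline transporter gene, at 3.78, 6.77, 6.99 and 8.46 TPM. The list of 16 cholinergic and motor neuron genes summed to 139, 209.8, 215 and 209 TPM, lowest in replicate 1 by a wide margin. Within it Prph, an intermediate filament gene of motor and sensory neurons, was at 10.9, 28.8, 23.5 and 21.2 TPM. Peptide genes named for the dorsal horn summed to 1270.1, 1258, 1183 and 1053 TPM and were led by Cck at 448, 464, 387 and 341 TPM, Sst at 322, 355, 341 and 294 TPM and Npy at 239.8, 208, 179 and 136 TPM. Cortical interneurons and other neurons use these 3 peptides as well.

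Defining genes of liver were at or near 0. Albumin, Alb, stayed at or under 0.13 TPM and the fibrinogen gene Fgb was at 0, so the liver list sum came from Ttr and from Trf, a transferrin gene that oligodendrocytes express. Of 14 T and NK cell genes only Trbc2, a T cell receptor constant region gene, passed the floor, at 31.1, 36.2, 26.3 and 25.1 TPM, while Cd3e, of the receptor's signalling complex, did not exceed 0.12 TPM. Of 11 B and plasma cell genes only Ighm, an antibody heavy chain gene, passed, at 46.1, 49.2, 43.7 and 40.05 TPM. The cell cycle gene Mki67 stood at 0.3, 0.28, 0.37 and 0.6 TPM. Blood was present, with the beta globin gene Hbb-bs at 289.5, 362, 717 and 414 TPM and the alpha globin genes Hba-a1 and Hba-a2 at 137, 170.4, 327 and 194 and 123, 174, 330.0 and 205 TPM. All 3 were highest in replicate 3, by 1.61-fold or more over each other library.

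Arf1, the gene the study set out to delete, was steady in the heterozygous libraries at 351, 310.3, 332 and 345 TPM. Its relative Arf3, the most abundant ARF gene here, stood at 586, 581, 496 and 559.6 TPM. Arf5 and Arf4 followed at means of 129.6 ± 4.21 and 96.2 ± 3.22 TPM, then Arf2 at 49.3 ± 1.44 and Arf6 at 23.9 ± 0.937 TPM (SD, n = 4). The ranges of these 6 genes did not overlap. The summed level of the 6 genes had a CV of 4.17%.

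Most genes varied little. Of the 12644 genes past the floor, 125 (0.989%) had a CV above 50% and are called variable here, 119 of them protein-coding. The median CV was 9.52%, and 88.5% of the genes had a CV under 20%. Counting error alone, taken as 1 over the square root of the mean count, gave a median of 3.15%, and at most 9.78% among the variable genes. The CV fell with level, from a median of 17.8% at 1 to 3 TPM to 6.09% at 100 TPM or more. The steadiest gene was Tsg101, of the machinery that sorts membrane proteins to lysosomes, at 53.3, 53.3, 53.7 and 53.6 TPM (CV 0.349%). Gnb2, a G protein subunit gene, stood at 293, 296, 296 and 295 TPM and Atp6v1f, a proton pump subunit gene, at 239, 239, 237 and 237 TPM. The 10 steadiest also included Nsun5, Mon1a, Cetn2, Tctex1d2, Usp48, Arhgdia and U2af1. Each of the 10 had a CV under its own counting error (2.27% for Tsg101), so their place at the end of the ranking is not read as a result.

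**Figure D4:**
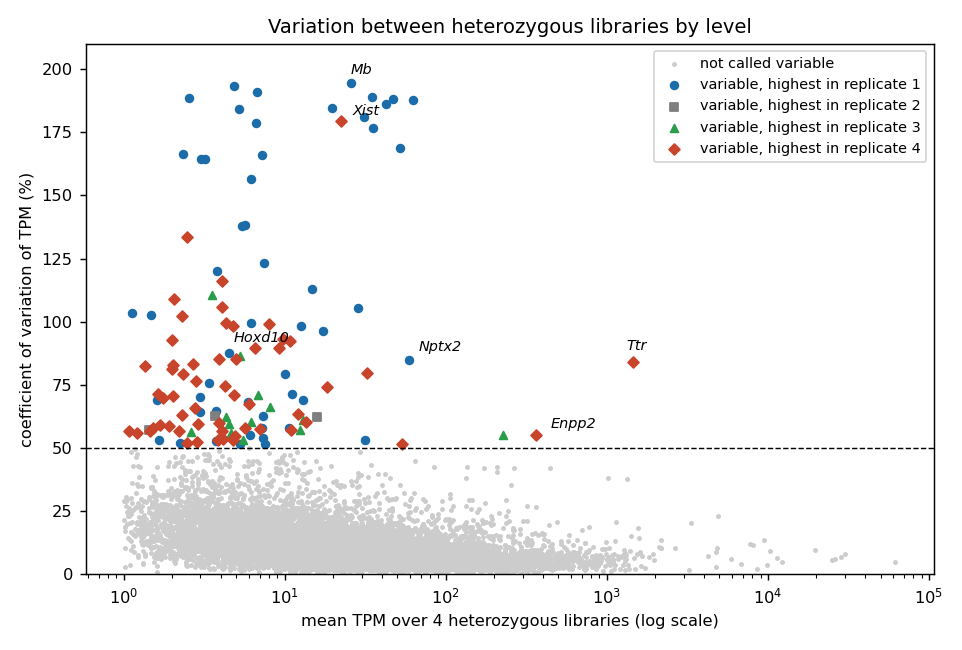
CV of TPM over the 4 heterozygous libraries against mean TPM (log scale) for the 12644 genes past the floor, in grey below the dashed line at 50% and coloured above it by the library with the highest value. Genes highest in replicate 1 (52) and replicate 4 (56) make up most of the 125. Of all genes past the floor 23.3% were highest in replicate 1 and 47.6% in replicate 4. Labels mark genes named in the text.

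Replicates 1 and 4 held the peaks of most variable genes, as they did of all genes past the floor. Of the 125, 52 were highest in replicate 1 and 56 in replicate 4, against 14 in replicate 3 and 3 in replicate 2. Of all genes past the floor 23.3%, 14.5%, 14.5% and 47.6% peaked in replicates 1 to 4. The count for replicate 4 was thus near its share of all genes, while that for replicate 1 was above it. Among the 12644 genes, 142 differed more than 2-fold in TPM + 1 between replicates 1 and 4 and 24 between replicates 2 and 3. Adding 1 shrinks the fold difference of low genes, so some that differ more than 2-fold in TPM are not counted. Without replicate 1 the number of variable genes was 83, and without replicate 4 it was 100, with 66 and 70 of them among the 125. With both left out 33 were variable, 10 of them among the 125.

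Skeletal muscle genes were mostly high in replicate 1 and low in the others. Mb, myoglobin, the oxygen store of muscle, stood at 101, 0.93, 0.76 and 0.49 TPM. Ckm, muscle creatine kinase, stood at 134, 2.83, 2.79 and 0.27 TPM, and Tnnt3, a troponin of fast fibres, at 238, 5.24, 5.84 and 0.47 TPM. In each of these genes replicate 1 was 40.8-fold or more above every other library. The muscle actin gene Acta1 stood at 183, 10.03, 8.16 and 6.08 TPM and the fast myosin heavy chain gene Myh1 at 26.01, 0.27, 0.44 and 0.22 TPM. Of the 18 genes in the list 17 passed the floor, 16 of these peaked in replicate 1, and 15 were variable. Without replicate 1, 4 of the 18 would have passed. The list summed to 1739, 187, 216 and 144 TPM, a CV of 136% that fell to 20.1% without replicate 1. Most of the sum in replicates 2 to 4 came from Pvalb, so the 20.1% mainly describes that gene. Myh7, the slow and cardiac myosin gene, was not variable and was highest in replicate 4, at 4.0, 4.03, 3.75 and 4.92 TPM. Pvalb, which cortical interneurons express too, was highest in replicate 1 but not variable, at 276, 131, 162 and 117 TPM. Atp2a1, the calcium pump of fast muscle, at 74.5, 2.45, 1.2 and 0.95 TPM, and Tnni2, a fast troponin, at 179.8, 3.55, 3.78 and 1.0 TPM, were also highest in replicate 1.

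The start regions of 3 muscle genes are shown because they hold CAGCTG, an E-box letter pattern that reads the same on both strands, within 150 bases before the start (RefSeq, GRCm38.p6). Each is given 5′ to 3′ on the gene's strand, ends at the base before the start, and has the CAGCTG in capitals. Atp2a1 lies at chr7:126463074-126463223 on the minus strand, Mylpf, a myosin light chain gene, at chr7:127211458-127211607 on the plus strand, and Myh4, a fast myosin heavy chain gene, at chr11:67237662-67237811 on the plus strand.
Atp2a1: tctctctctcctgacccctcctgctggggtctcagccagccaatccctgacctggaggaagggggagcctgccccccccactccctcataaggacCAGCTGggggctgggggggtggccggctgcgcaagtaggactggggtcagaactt
Mylpf: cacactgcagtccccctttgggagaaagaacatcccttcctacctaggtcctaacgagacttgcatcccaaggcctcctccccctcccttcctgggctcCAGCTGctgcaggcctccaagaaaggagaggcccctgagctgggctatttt
Myh4: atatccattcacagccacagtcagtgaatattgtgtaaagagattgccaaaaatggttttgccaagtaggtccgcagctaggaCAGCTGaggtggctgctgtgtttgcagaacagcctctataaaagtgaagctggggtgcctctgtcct
These 3 were chosen for holding the pattern. Mylpf stood at 129, 4.25, 4.86 and 3.21 TPM and Myh4 at 24.5, 0.82, 1.03 and 0.3 TPM. Over windows of 300 bases, 250 before and 50 after the start, CAGCTG occurred in 6 of the 13 muscle list genes with a RefSeq window. It occurred in 16 of 36 variable genes highest in replicate 1 (44.4%), in 8 of 41 highest in replicate 4 (19.5%), and in 15.0% of the 9561 genes past the floor that had one. Over all 27025 genes in the promoter table the share was 16.1%. The 15 variable genes of the muscle list were all highest in replicate 1, so the groups of 13 and 36 overlap and are not separate results. Without replicate 1, 4 muscle list genes would have passed the floor. The pattern CGCG, common in CpG-rich starts, was in 7 of the 36 (19.4%), in 24 of the 41 (58.5%), and in 72.6% of genes past the floor. TATAAA on either strand was in 19.4%, 21.95% and 6.56% of the same groups, and CACCTG on either strand in 22.2%, 39.0% and 17.0%. TGACGTCA was in none of the 36 or 41 and in 3.36% of genes past the floor. A match is a run of letters and does not show that a factor binds.

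Late-responding activity genes and chaperones were also highest in replicate 1. Nptx2, a pentraxin that gathers glutamate receptors, stood at 135, 36.5, 30.8 and 35.4 TPM. Inhba, a subunit of activin, stood at 10.4, 3.15, 1.76 and 2.75 TPM, and Bdnf, a neurotrophin, at 26.4, 16.1, 14.2 and 13.2 TPM. All 16 genes in a list of late activity-regulated genes, drawn up after the levels were seen, peaked in replicate 1, with sums of 1498, 1023, 895 and 922 TPM. Of those, Nptx2 and Inhba were variable. The count of 16 is partly set by the choice of genes. Among immediate early genes the transcription factor genes Egr3, at 107, 58.6, 41.8 and 51.03 TPM, and Fosb, at 26.2, 12.8, 11.5 and 12.2 TPM, were highest there, while Fos, at 49.5, 44.7, 38.8 and 39.6 TPM, and Egr1, at 179, 187, 134 and 139 TPM, differed less. Of 21 immediate early genes past the floor 8 peaked in replicate 1 and 7 in replicate 2. All 15 heat shock genes peaked in replicate 1. Hsph1, a chaperone of the Hsp110 family, stood at 387, 216, 194 and 215 TPM, Hspa5, the chaperone of the endoplasmic reticulum, at 449.9, 281, 265 and 286 TPM, and Hspa1b, the classical stress-induced Hsp70, at 21.6, 8.87, 5.27 and 4.35 TPM.

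The clock output gene Dbp was lowest in replicate 1, at 29.1, 69.2, 62.3 and 58.9 TPM. Nr1d1, which encodes a repressor of the clock, was at 52.9, 83.8, 74.1 and 74.9 TPM. Arntl, the positive arm of the clock, was highest there at 18.7, 16.4, 15.3 and 16.9 TPM. S100a5 and Doc2g, genes of the olfactory system, stood at 8.52, 0.25, 0 and 0 and 8.83, 2.03, 1.48 and 1.51 TPM, high only in replicate 1 and both under the floor.

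Choroid plexus genes were highest in replicate 4 and lowest in replicate 2. This epithelium lies within the brain's ventricles and makes cerebrospinal fluid, and is not part of the spinal cord. Ttr stood at 1335, 288, 1039 and 3169 TPM. Kl, the ageing-related membrane protein klotho, stood at 6.69, 2.4, 6.46 and 21.1 TPM, and Folr1, a folate receptor of this epithelium, at 7.28, 2.83, 7.83 and 25.5 TPM. Otx2, its transcription factor, was at 3.36, 0.54, 2.13 and 10.4 TPM and Kcnj13, a potassium channel gene, at 5.73, 1.39, 4.2 and 14.98 TPM. Replicate 4 was 1.95-fold or more above every other library in all 10 list genes, and replicate 2 was lowest in all 10. All 10 passed the floor and were variable, but without replicate 4 only 7 would have passed. Enpp2, an enzyme also of oligodendrocytes, stood at 278, 203, 317 and 654 TPM. The list sums were 1651, 502, 1391 and 3938 TPM, a CV of 78.2%, or 50.98% without replicate 4. Ttr made up most of each sum and Enpp2 most of the remainder, so these sums say little about the other members.

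Genes of thalamus and habenula followed replicate 4 as well. Tcf7l2, a Wnt pathway factor high in thalamic neurons and in newly formed oligodendrocytes, stood at 2.31, 2.5, 2.45 and 11.8 TPM. Shox2, a homeobox gene of the thalamus, was at 1.48, 0.32, 0.74 and 7.43 TPM, Prkcd, a kinase of thalamic neurons, at 15.5, 9.33, 10.4 and 38.5 TPM, and Lhx9, a LIM homeobox gene of the same region, at 0.95, 0.57, 0.88 and 3.0 TPM. Of the 12 genes 10 passed the floor, all of them highest in replicate 4, and 8 were variable. Without replicate 4 only 5 would have passed, and this list too was drawn up after the levels were seen, so these counts are partly set by the choice of genes. A list of 7 genes of striatal neurons, also drawn up after the levels were seen, summed to 253, 131, 119 and 220 TPM. Of the 6 past the floor 5 peaked in replicate 4, where 47.6% of all genes past the floor did, and 1 in replicate 1. Ppp1r1b, which encodes a dopamine-regulated phosphatase inhibitor, made up most of each sum, at 197, 96.6, 88.95 and 151 TPM. The dopamine receptor gene Drd2 stood at 4.13, 1.4, 2.75 and 8.67 TPM. The ependymal factor gene Foxj1, which drives motile cilia, stood at 8.9, 6.75, 8.97 and 15.9 TPM, and the cilia gene Rsph1 at 7.22, 6.76, 8.41 and 16.3 TPM, both highest in replicate 4.

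Hox genes differed between libraries in which segments they stand for. Genes of groups 10 to 13, of the lumbar and sacral cord, made up 8.13%, 29.5%, 26.6% and 9.25% of Hox TPM. Most of that was group 10, at 6.47, 24.1, 32.8 and 8.63 TPM, while group 13, the most posterior, was low throughout at 0.22, 0.17, 1.72 and 1.23 TPM and higher in replicates 3 and 4. Genes of groups 6 to 9, of the thoracic and lower cervical cord, made up 75.1%, 56.4%, 60.1% and 75.2%. Hoxd10, a lumbar gene, stood at 0.47, 7.66, 10.5 and 2.63 TPM and Hoxc10 at 3.5, 10.6, 14.6 and 3.91 TPM, with replicates 2 and 3 above replicates 1 and 4 in both. Hoxc8 ran the other way, at 8.18, 4.45, 3.49 and 23.2 TPM, with replicate 4 the highest. Hoxa9 was at 4.44, 4.58, 9.82 and 3.23 TPM, highest in replicate 3. Of the 39 Hox genes 13 passed the floor, 6 were variable, and 12 of the 13 had their highest value in replicate 3. Without replicate 3, 11 would have passed.

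Genes listed for Schwann cells did not move as 1 group. These cells make the myelin of nerve roots and peripheral nerve. Prx, periaxin, a scaffold protein of their myelin, was at 4.37, 10.9, 21.5 and 13.03 TPM, and Pmp22 at 71.5, 117, 208 and 142 TPM. Cldn19, a junction gene of these cells, stood at 1.44, 3.62, 6.7 and 4.2 TPM. These 3 were highest in replicate 3 and lowest in replicate 1. Egr2, a transcription factor of myelinating Schwann cells that neurons express too, was lowest in replicate 3 at 8.38, 9.41, 7.39 and 7.73 TPM, and Sox10, a factor shared with oligodendrocytes, was highest in replicate 2 at 25.6, 30.6, 27.9 and 27.8 TPM. Of the 17 list genes 11 passed the floor, 3 were variable, and 5 of the 11 were highest in replicate 3, 4 in replicate 4 and 2 in replicate 2. Meningeal fibroblast genes, from the membranes around the cord and brain, summed to 1129, 1149, 1693 and 1665 TPM and were higher in replicates 3 and 4. The collagen-binding Dcn was at 16.8, 24.4, 43.9 and 29.5 TPM. Of MHC class II genes, which present antigen, H2-Aa stood at 3.81, 2.39, 10.4 and 8.14 TPM and its invariant chain gene Cd74 at 5.89, 5.38, 11.8 and 13.4 TPM, higher in replicates 3 and 4.

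**Figure D5:**
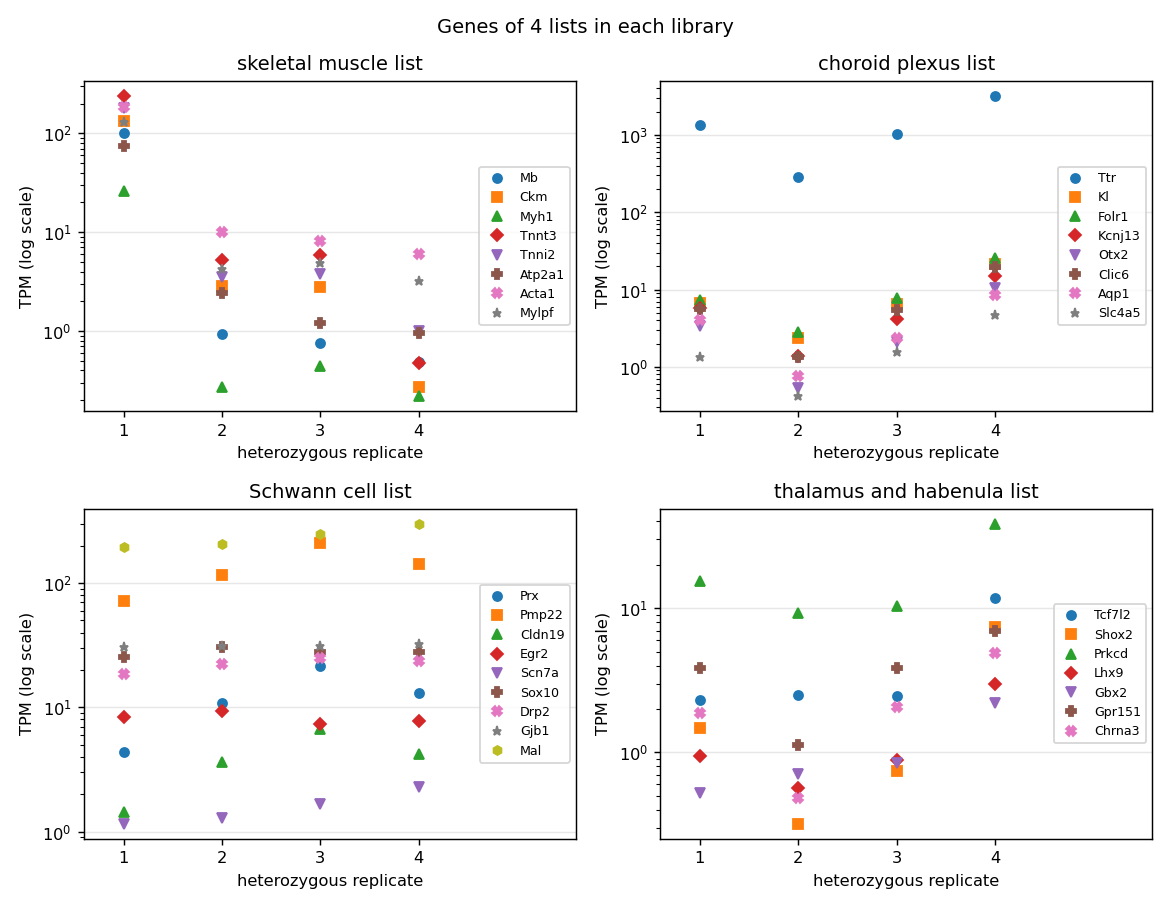
TPM (log scale) of genes from 4 lists in each heterozygous library, with 1 panel per list. The muscle genes drawn are highest in replicate 1 and the choroid plexus and thalamus or habenula genes drawn in replicate 4. In the Schwann cell panel Prx, Pmp22 and Cldn19 are highest in replicate 3 and Egr2 is lowest there. A value of 0 is not drawn.

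Genes of the sex chromosomes separated replicate 4 from the others. Xist, the transcript that silences one X chromosome in females, stood at 7.11, 0.01, 0 and 82.9 TPM. The Y-linked helicase gene Ddx3y stood at 16.5, 16.6, 17.5 and 1.09 TPM, Eif2s3y at 19.8, 22.7, 19.4 and 1.23 TPM, Uty at 4.74, 5.28, 4.56 and 0.25 TPM and Kdm5d at 5.07, 5.44, 6.31 and 0.37 TPM. Replicate 4 had the highest Xist and the lowest value of each Y-linked gene. Replicate 1 held Xist above 0 beside Y-linked genes at the level of replicates 2 and 3. The labels give no sex, and these values are not used to group the libraries.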

How the data were processed

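RNA was sequenced from the 4 heterozygous libraries, and the submitters' processing notes name cutadapt, STAR, RSEM and Picard as tools and mm10 as the genome build, without their roles. The tool versions and the annotation release were not given in the sources used here. Per the file headers, the authors deposited RSEM expected counts, effective length in bases and TPM for each gene and library. RNA integrity and the share of bases by region are other values, taken from a deposited quality table of the authors. RSEM divides reads among similar genes, so TPM of close copies and of genes shorter than the reads are uncertain.

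Groups come from the genotype label. Replicate numbers follow deposition order and pair nothing. Of 47643 gene identifiers 47224 matched GENCODE release M21 (GRCm38), used for positions and gene types. Promoter sequences are RefSeq's (GRCm38.p6), the first window listed for a gene. No test between groups was run. The measures were mean TPM, sums over lists and families, shares of TPM, and the CV over 4 libraries, called variable above 50% at a mean of at least 1 TPM and 100 expected counts.

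The genes and lists were chosen with earlier results of these data known. The genes named were the 30 highest by mean TPM, the 25 highest named nuclear genes, those of the 40 highest CVs, the 10 steadiest, the leading and most variable members of each list, Arf1 to Arf6, and Xist with Y-linked genes. Further members of a list appear as values only. Some genes this rule names are not reported here. A set of 10 lists was added after the levels were seen, of which those of cortical neurons, thalamus and habenula, striatum, olfactory bulb and late activity genes are used. The remaining added lists summed to means of 99 TPM (hippocampus), 3.78 TPM (hypothalamic peptides), 1.08 TPM (aminergic hindbrain), 3.18 TPM (cerebellum) and 24.1 TPM (inhibitory neurons of cord and hindbrain). Alternatives were TMM-scaled CPM from expected counts rounded to whole numbers (edgeR 4.0.16 in R 4.3.3), median-of-ratios scaling, leaving out mitochondrial genes or genes under 200 bases of effective length, other floors and spread measures, and each library left out. Leaving out replicates 1 and 4 together was chosen after seeing the data. Tables were read and drawn with Python 3.11.15, pandas 2.3.3 and matplotlib 3.10.9.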

Additional observations from a re-analysis of the deposited data

Results flagged for a closer look

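Results appear here where the gap between the highest or lowest library and its nearest neighbour took up more of the range of the 4 libraries than the 95% limit of Dixon's test allows. Chance passes that limit in about 1 group in 20, and 6.26% of the 12644 genes past the floor did so. Of 100 lists and families 9 passed it. That share is not read as a result, because 10 of the lists were added after the levels were seen. The olfactory bulb and hypothalamic peptide lists are among those 10, and no hypothalamic peptide gene passed the floor. Replicate 1 stood apart at 139 TPM for the cholinergic and motor neuron list, as the lowest, and as the highest for skeletal muscle (1739 TPM), heat shock (6997 TPM), glycolysis (13909.6 TPM), olfactory bulb (29.1 TPM) and hypothalamic peptide genes (6.91 TPM). Replicate 3 was the highest for cytosolic ribosomal proteins (49954 TPM). Replicate 4 was the highest for the sex chromosome list (85.9 TPM) and the cilia and flagella associated family (194 TPM).

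Of 151 named genes tested 26 passed the limit, a share that is not read as a result because some were named for their high CV. The 18 highest in replicate 1 were Acta1 (183 TPM), Atp2a1 (74.5 TPM), Ckm (134 TPM), Doc2g (8.83 TPM), Fosb (26.2 TPM), Hspa5 (449.9 TPM), Hspa8 (2619 TPM), Hsph1 (387 TPM), Inhba (10.4 TPM), Mb (101 TPM), Mon1a (15.9 TPM), Myh1 (26.01 TPM), Myh4 (24.5 TPM), Mylpf (129 TPM), Nptx2 (135 TPM), S100a5 (8.52 TPM), Tnni2 (179.8 TPM) and Tnnt3 (238 TPM). In replicate 4 the highest were Glra1 (11.3 TPM), Lhx9 (3.0 TPM), Shox2 (7.43 TPM), Tcf7l2 (11.8 TPM) and Xist (82.9 TPM), and the lowest were Ddx3y (1.09 TPM), Eif2s3y (1.23 TPM) and Uty (0.25 TPM). Mon1a is among the 10 steadiest genes, with a CV of 0.445%, under its counting error of 3.95%.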

How the results depend on the processing

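No paired analysis was possible because only 1 group was described. On TMM-scaled CPM, which ignores gene length, the 100 highest genes held 21.8%, mitochondrial mRNA 5.86%, ribosomal proteins 1.32%, myelin genes 1.41%, neuronal genes 1.504% and astrocyte genes 1.35%, and the forebrain and cerebellum list summed to 503 CPM. Without mitochondrial genes, the 100 highest genes held 29.02%, ribosomal proteins 5.61%, myelin genes 1.51%, neuronal genes 1.43% and astrocyte genes 1.12%, and the forebrain and cerebellum list summed to 357 TPM. With genes under 200 bases of effective length left out, the 100 highest genes held 36.1%, mitochondrial mRNA 10.9%, ribosomal proteins 4.39%, myelin genes 1.37%, neuronal genes 1.29% and astrocyte genes 1.02%, and the forebrain and cerebellum list summed to 324 TPM. With TMM-scaled CPM there were 124 variable genes, 113 of them among the 125. Leaving out 1 library gave 83 to 154 variable genes, a median CV of 8.07% to 9.91%, mitochondrial mRNA shares of 16.3% to 16.9%, muscle sums averaging 182 to 714 TPM and choroid plexus sums averaging 1181 to 2327 TPM; the 83 came without replicate 1. Without replicates 1 and 4, chosen after seeing the data, 33 genes were variable and the median CV was 6.08%. No floor gave 8189 variable genes and a median CV of 20.8%, a floor of 5 TPM gave 62, an SD above 0.5 of log2(TPM + 1) gave 190, and of log2(TPM + 0.1) 296. Below the floor of 100 expected counts counting error adds to the spread, and 4 libraries set each CV.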

Other observations

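Of 19 genes of cholesterol synthesis, which feeds myelin growth and membranes, 12 were highest in replicate 2, where 14.5% of all genes past the floor peaked. The list summed to 913, 1109, 1049 and 1016 TPM. Insig1, which holds the sterol sensor in the endoplasmic reticulum, stood at 38.4, 60.6, 60.1 and 55.4 TPM, lowest in replicate 1. Of 15 genes raised by glucocorticoids 11 peaked in replicate 4, where 47.6% of all genes past the floor did. Fkbp5, a co-chaperone of the steroid receptor, stood at 39.7, 21.5, 29.8 and 41.9 TPM and Sgk1, a kinase, at 132, 95.7, 139.8 and 158 TPM, lowest in replicate 2 in both.

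Zinc-binding metallothioneins were abundant and even, with Mt3, the form of neurons and astrocytes, at 879, 876, 988 and 978 TPM and Mt1 at 636, 584, 656 and 717 TPM. Genes of activated glia were low. Serpina3n, a protease inhibitor of reactive astrocytes, stood at 26.1, 21.1, 24.7 and 25.6 TPM and the complement gene C3 at 6.44, 3.47, 4.22 and 5.54 TPM. Interferon response genes summed to 76.8, 82.5, 113 and 100.4 TPM, led by Ifitm3 at 24.1, 26.4, 39.2 and 32.9 TPM, highest in replicate 3. Sodium pump genes, which restore ion gradients after firing, summed to 4374, 4259, 4279 and 4637 TPM.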
